A study of Homo sapiens with 4 samples.

Results

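Translation initiation and elongation factors were described here across 4 libraries of poly(A) RNA from HCT-8, a line of human colorectal cancer cells, in a form resistant to the drug 5-fluorouracil. The members are the genes whose symbol begins with EIF or EEF and a digit, without the 4 eIF2 kinases EIF2AK1 to EIF2AK4. They number 67 symbols on 69 of the 20323 gene rows, and where a symbol had 2 rows the one with the higher mean count was used. In 2 libraries the cells had been transfected with METTL14 overexpression plasmids (METTL14, replicates 1 and 2), and in 2 with negative control plasmids (control, replicates 1 and 2). METTL14 is the partner of METTL3 in the enzyme that places N6-methyladenosine on mRNA. All cells were treated with 100 ug/mL cycloheximide (CHX), which stops ribosomes during elongation, and there are no libraries from cells without it. The series describes 2 independent runs of the experiment in 1 resistant line, and the sensitive parental cells were not analysed here.

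Translation begins when eIF2 carries the initiator tRNA to the small ribosomal subunit, where eIF1, eIF1A, eIF3 and eIF5 assist in start codon choice. The mRNA is brought in by eIF4F, made of the cap-binding eIF4E, the scaffold eIF4G and the helicase eIF4A, and eIF5B then joins the large subunit. In elongation eEF1A delivers each aminoacyl-tRNA, eEF1B recharges eEF1A with GTP, eEF2 moves the ribosome on, and eIF5A helps at difficult peptide bonds. In colorectal cancer these factors are known as part of the growth programme that MYC and mTOR drive.

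Several factor mRNAs start with a 5′ terminal oligopyrimidine (TOP) tract, a C followed by C and T bases only, which places their translation under mTOR through the protein LARP1. Start sites were read from RefSeq (build GRCh38.p14) for 54 of the 67 symbols, 47 of them among the members tested below. A TOP start was counted where the first base was C and at least the next 4 were C or T, on the transcript's strand. For a symbol with several starts, any start with the tract sufficed, and that start is printed. Of the 47 members 12 had a TOP start. They are shown so that the starts of members with the tract can be read beside those of members without it that had large falls. Each run holds 5 bases before the start and 20 from it, and the capitals mark the tract from the first transcribed base.
EEF1A1 (chr6:73521013-73521037, minus strand): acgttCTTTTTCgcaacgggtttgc
EEF1B2 (chr2:206159890-206159914, plus strand): cgggtCCTTTTTCCTCTCTTCagcg
EEF2 (chr19:3985444-3985468, minus strand): gcgttCTCTTCCgccgtcgtcgccg
EIF2A (chr3:150546782-150546806, plus strand): ggtttCTCTTTCCgggacaacatgg
EIF2D (chr1:206612446-206612470, minus strand): cgggcCCTTTTCgcggccgggcccc
EIF2S3 (chrX:24054951-24054975, plus strand): ccttcCTCTTTTggcaacatggcgg
EIF3D (chr22:36529147-36529171, minus strand): gtttcCTCTTTTCCTggtttctcaa
EIF3F (chr11:7987332-7987356, plus strand): gcctcCTTCTTTCTCgacaagatgg
EIF3K (chr19:38619183-38619207, plus strand): accacCTCTTCCTgttcccgtcctt
EIF3M (chr11:32583826-32583850, plus strand): gttccCTTTTCCggtcggcgtggtc
EIF4A2 (chr3:186783572-186783596, plus strand): gctgtCTTTTCagtcgggcgctgag
EIF4B (chr12:53006451-53006475, plus strand): cgggtCTTTTgcgttctctttccct

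For contrast, 6 members without such a start are printed in the same window, with the first transcribed base in capitals. They had the largest falls among members called lower whose RefSeq starts were read. Where RefSeq lists several starts, as for EIF5A, the first is shown, and none of the others has the tract.
EIF5A (chr17:7306994-7307018, plus strand): acccgAccacactagcgcgctagaa
EIF5B (chr2:99337384-99337408, plus strand): aactcAcaccatatgtgtcctgttc
EIF2B3 (chr1:44986576-44986600, minus strand): cagtcAgaggcggcgtggagatcgc
EIF1AX (chrX:20141819-20141843, minus strand): gcggcGccatttgctgccgccgagc
EIF4G2 (chr11:10807977-10808001, minus strand): gaagcActtccctaacttgcgcctg
EIF4A1 (chr17:7572820-7572844, plus strand): tccgcCctagtttctaaggatcatg

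The label check came first. METTL14 itself had 390.1 and 420.7 CPM (counts scaled to library size with edgeR's TMM factors) with its plasmid, against 24.55 and 30.69 CPM in controls, a log2 fold change of 3.88 (SE 0.141) with an adjusted p of 7.33e-05 in edgeR. Total counts were 19206663 and 19829156 with METTL14 and 20161078 and 19247783 in controls. Of 12 colorectal epithelial markers, 11 with METTL14 and 10 in controls reached a mean of 1 CPM, and CEACAM5 was near 0 throughout. The epithelial markers summed to 9400 and 9179 CPM with METTL14 and 18270 and 11950 CPM in controls. Of these the keratins KRT8, KRT18 and KRT19 were lower (log2 fold change -0.90, -0.92 and -0.39). The cadherins CDH17 (1.87) and CDH1 (0.74), and CDX2 (0.44) and LGALS4 (0.44), were higher. The other epithelial markers were not called or, for CEACAM5, not tested. Leukocyte markers summed to 3.03 and 4.15 CPM with METTL14 and 1.82 and 2.41 CPM in controls, and endothelial markers to 1.85 and 1.53 CPM with METTL14 and 0.988 and 0.411 CPM in controls. Fibroblast markers summed to 20.04 and 18.23 CPM with METTL14 and 13.16 and 16.11 CPM in controls. The control libraries lay further apart than the METTL14 libraries, which also shows among the factors: the replicates differed by more than 1.25-fold for 1 member with METTL14 and for 10 members in controls. Transcripts of the mitochondrial genome took 9.85 and 10.2% of counts with METTL14 and 5.99 and 6.26% in controls, and the part of this shift and of the marker differences in the results was not tested.

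Initiation and elongation factor mRNAs were lower more often than higher with METTL14. Of the 67 members 60 passed the filter on low counts, and 30 of these were lower, 6 were higher and 24 were not called by edgeR's quasi-likelihood test with Benjamini-Hochberg adjustment over 12700 genes at a threshold of 0.05. The tested members were lower in 50% and higher in 10% of cases, against 28.1% and 27.0% of all tested genes, so that 60% of members and 55.1% of all genes were called. The median log2 fold change was -0.41 for the members and -0.01 for all tested genes. For 10 members the fall was at least 2-fold, a size passed by 8.80% of all genes, and 1 member rose by that much, against 10.2% of all genes. Both METTL14 libraries lay below both controls for 46 members (background 40.0%) and above them for 9 (background 39.8%). The groups thus did not overlap for 55 (background 79.8%). These shares of all genes are also the background of the counts and separations given below by complex and by gene. In bulk RNA, fewer cells with an mRNA and less of it per cell cannot be told apart.

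Tested against a fold of 1.5 instead of no change, 14 members were lower and 1 was higher, against 10.7% and 11.1% of all tested genes. The lower ones were EIF1AX, EIF2S1, EIF2B3, EIF3B, EIF3C, EIF3J, EIF3K, EIF4A1, EIF4G2, EIF5A, EIF5B, EIF6, EEF1B2 and EEF1AKMT1, and the higher one was EIF4E3. The calls depend on the libraries used: 22 members were lower and 3 higher without METTL14 replicate 1, and 24 and 2 without METTL14 replicate 2. They were 38 and 9 without control replicate 1, and 43 and 8 without control replicate 2. The calls over all genes moved alike, with 17.9%, 19%, 33.2% and 35.3% lower and 17.9%, 18.6%, 32.7% and 34.3% higher in the same 4 fits. In each such fit the lone library of a group is assumed to vary like the pair of the other group. Calls gained without a control therefore rest on the spread of the METTL14 pair alone, which is the closer pair.

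**Figure D1:**
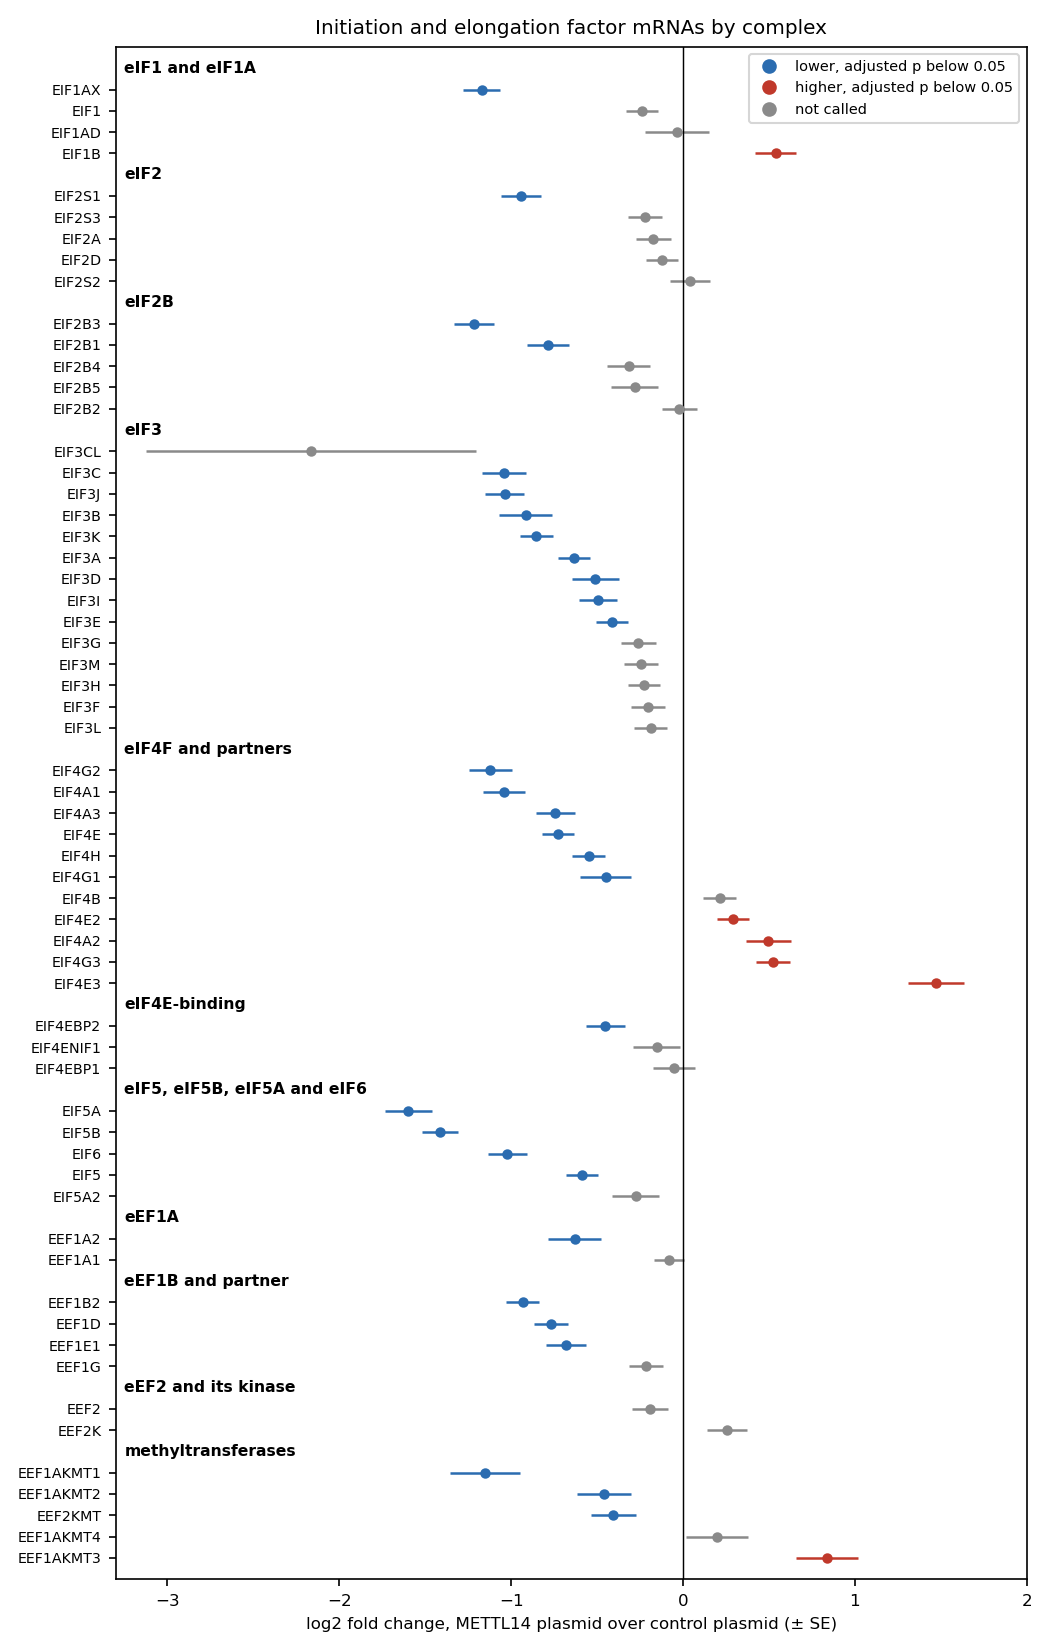
Log2 fold change of METTL14 over control for the 60 tested members (x axis, points with SE), grouped by complex on the y axis, in blue where lower, red where higher and grey where not called. EIF5A at -1.60 and EIF5B at -1.42 are the lowest called points, EIF4E3 at 1.47 is the highest, and EIF3CL has the widest error.

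**Figure D2:**
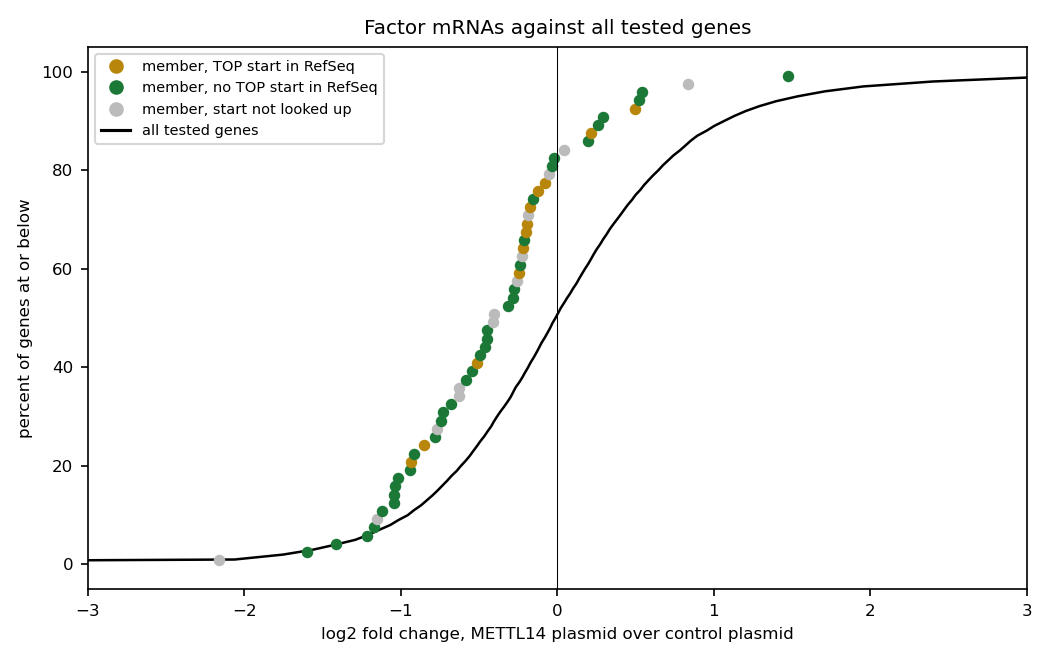
Share of genes at or below each log2 fold change (y axis, percent) for all 12700 tested genes (black line) and the 60 tested members (points, coloured by whether RefSeq gives a TOP start). The members run to the left of the line except in the lowest tail, with medians of -0.41 and -0.01.

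Read against the start sequences above, 3 of the 12 members with a TOP start were lower (EEF1B2, EIF3K and EIF3D), 1 was higher (EIF4A2) and 8 were not called, with a median log2 fold change of -0.20. Of the 35 without a TOP start, 21 were lower and 4 higher, with a median of -0.50. Tested members with no start read are in neither group: EIF2S2, EIF3A, EIF3CL, EIF3E, EIF3G, EIF3H, EIF3L, EIF4EBP1, EEF1A2, EEF1D, EEF1AKMT1, EEF1AKMT3 and EEF2KMT. Of those, EIF3A, EIF3E, EEF1A2, EEF1D, EEF1AKMT1 and EEF2KMT were lower, EEF1AKMT3 was higher and the rest were not called. Whether they have a TOP start was not read, so the 2 groups do not cover all members. EEF1B2, which has the longest printed tract (16 bases), also had the largest fall among the 12. The other tracts gave no such order by length. EIF3D and EIF3F, with 10 bases each, were at -0.51 and -0.20, and EIF2A and EIF3K, with 8 each, at -0.17 and -0.85. Among all tested genes found in RefSeq, 7.45% had a TOP start by the same rule, and 249 of those 755 (33.0%) were lower and 218 higher, against 2717 lower and 2423 higher of 9373 without one. Without ribosomal protein genes, 210 of 711 with a TOP start (29.5%) were lower. The members were split after their values were seen, so the difference between the 2 groups is a description without a test. RefSeq starts need not be those used in these cells.

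The eIF1 and eIF1A group, which holds the scanning ribosome open until a start codon is met, moved in both directions. EIF1AX, the X-linked gene of eIF1A, had 72.4 and 77.8 CPM with METTL14, against 178.3 and 160.1 CPM in controls, 2.25-fold lower (log2 fold change -1.17, SE 0.106, edgeR adjusted p = 0.000204). EIF1B, the minor paralog of EIF1, had 49.6 and 54.1 CPM with METTL14 and 33.6 and 37.8 CPM in controls and was higher (0.54, SE 0.117, edgeR adjusted p = 0.0066). Neither gene's groups overlapped. EIF1, which guards start codon accuracy, had 422.3 and 431.2 CPM with METTL14 and 514.1 and 491.6 CPM in controls and was not called (-0.24, adjusted p = 0.0648), though it was without either control. EIF1AD, which carries a domain like that of eIF1A, was not called (-0.03), and it was called higher without control replicate 1 (0.28) and lower without control replicate 2 (-0.29). The EIF1B call was lost without METTL14 replicate 2 (adjusted p = 0.0783). After correction for transcript length and GC content EIF1AX was at -0.75 and EIF1B at 0.98. EIF1AY, the Y-linked copy, is left out of the values given here.

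Of eIF2, the carrier of the initiator tRNA, the alpha subunit alone was called. EIF2S1, which encodes the subunit that stress kinases phosphorylate, had 149.9 and 149.5 CPM with METTL14 and 314.2 and 261.4 CPM in controls, 1.92-fold lower (log2 fold change -0.94, SE 0.117, edgeR adjusted p = 0.000586). The METTL14 libraries were nearly equal and lay far below both controls. EIF2S2, the beta subunit, had 163.0 and 177.8 CPM with METTL14 and 152.7 and 178.4 CPM in controls, with overlapping groups (0.04). EIF2S3, the gamma subunit that binds GTP and the tRNA, had 285.2 and 284.5 CPM with METTL14 and 348.3 and 314.6 CPM in controls and was not called (-0.22, adjusted p = 0.0998). It was called without either control, and EIF2S2 was called without control replicate 2, where its value was 0.16. The ratio of alpha to beta subunit counts, not corrected for length, was 0.920 and 0.841 with METTL14 and 2.06 and 1.47 in controls. That the groups are apart in this ratio follows from the fall of EIF2S1 beside EIF2S2, which was not called. EIF2A and EIF2D, which can deliver initiator tRNA outside the eIF2 route, were not called (-0.17 and -0.12), although EIF2A was lower without control replicate 1 (-0.22) and changed sign after correction for length and GC content (0.17).

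Among the 5 subunits of eIF2B, which reloads eIF2 with GTP, 2 were lower and 3 were not called. EIF2B3, the gamma subunit, had 17.8 and 18.9 CPM with METTL14 and 43.5 and 41.7 CPM in controls, 2.32-fold lower (log2 fold change -1.22, SE 0.115, edgeR adjusted p = 0.000231). EIF2B1, the alpha subunit, had 43.1 and 48.6 CPM with METTL14 and 85.2 and 72.6 CPM in controls (-0.78, SE 0.123, edgeR adjusted p = 0.00158). The beta, delta and epsilon subunits EIF2B2, EIF2B4 and EIF2B5 lay between -0.32 and -0.02, so the subunits did not fall in step. EIF2B5 encodes the catalytic subunit, and its controls differed from each other (87.4 and 67.6 CPM) by more than the METTL14 libraries did (63.9 and 63.6 CPM). EIF2B4 and EIF2B5 were called lower without control replicate 2, and EIF2B4 also after the length and GC correction. EIF2B1 shares 564 exon bases with DDX55 and GTF2H3 on the other strand, and whether the counting used strand is not stated in the sources at hand.

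The eIF3 complex, the scaffold that binds the small subunit and recruits eIF4F, had 1 direction throughout. All 14 of its genes had both METTL14 libraries below both controls (40.0% of all tested genes). Of these, 8 were called lower and none higher (28.1% and 27.0% of all tested genes). EIF3J, a loosely attached subunit, had 60.6 and 67.8 CPM with METTL14 and 139.7 and 124.1 CPM in controls (log2 fold change -1.04, SE 0.113, edgeR adjusted p = 0.000358). EIF3K had 97.2 and 100.2 CPM with METTL14 and 182.6 and 174.4 CPM in controls (-0.85, SE 0.0956, edgeR adjusted p = 0.000406). EIF3C (-1.04), EIF3B (-0.92) and EIF3A (-0.63) were lower too, as were EIF3D (-0.51), which can bind the cap on some mRNAs, EIF3I (-0.50) and EIF3E (-0.41). EIF3F, EIF3G, EIF3H, EIF3L and EIF3M were between -0.26 and -0.19 and were not called. Each of these 5 was called lower without control replicate 2, and EIF3G, EIF3H and EIF3M also without control replicate 1. Apart from EIF3CL, the subunits spread over log2 fold changes from -1.04 to -0.19.

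EIF3C and EIF3CL are near-identical copies between which estimated counts can be divided. EIF3CL had 0 and 47 counts with METTL14 and 69 and 136 in controls, and was not called (-2.17, SE 0.959), while EIF3C held 8416 and 8387 counts with METTL14 and 18577 and 15129 in controls. Its value ran from -9.68 without METTL14 replicate 2 to -1.18 without METTL14 replicate 1, and it was called lower in both, without control replicate 2 (-1.61) and by limma-voom (-4.32). EIF3D was at -0.305 without control replicate 1. EIF3D, EIF3E and EIF3I were no longer called without METTL14 replicate 1 or 2, with adjusted p-values of up to 0.0905, 0.175 and 0.0947. After correction for transcript length and GC content, EIF3E was no longer lower (0.06) and EIF3M changed sign (0.01).

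**Figure D3:**
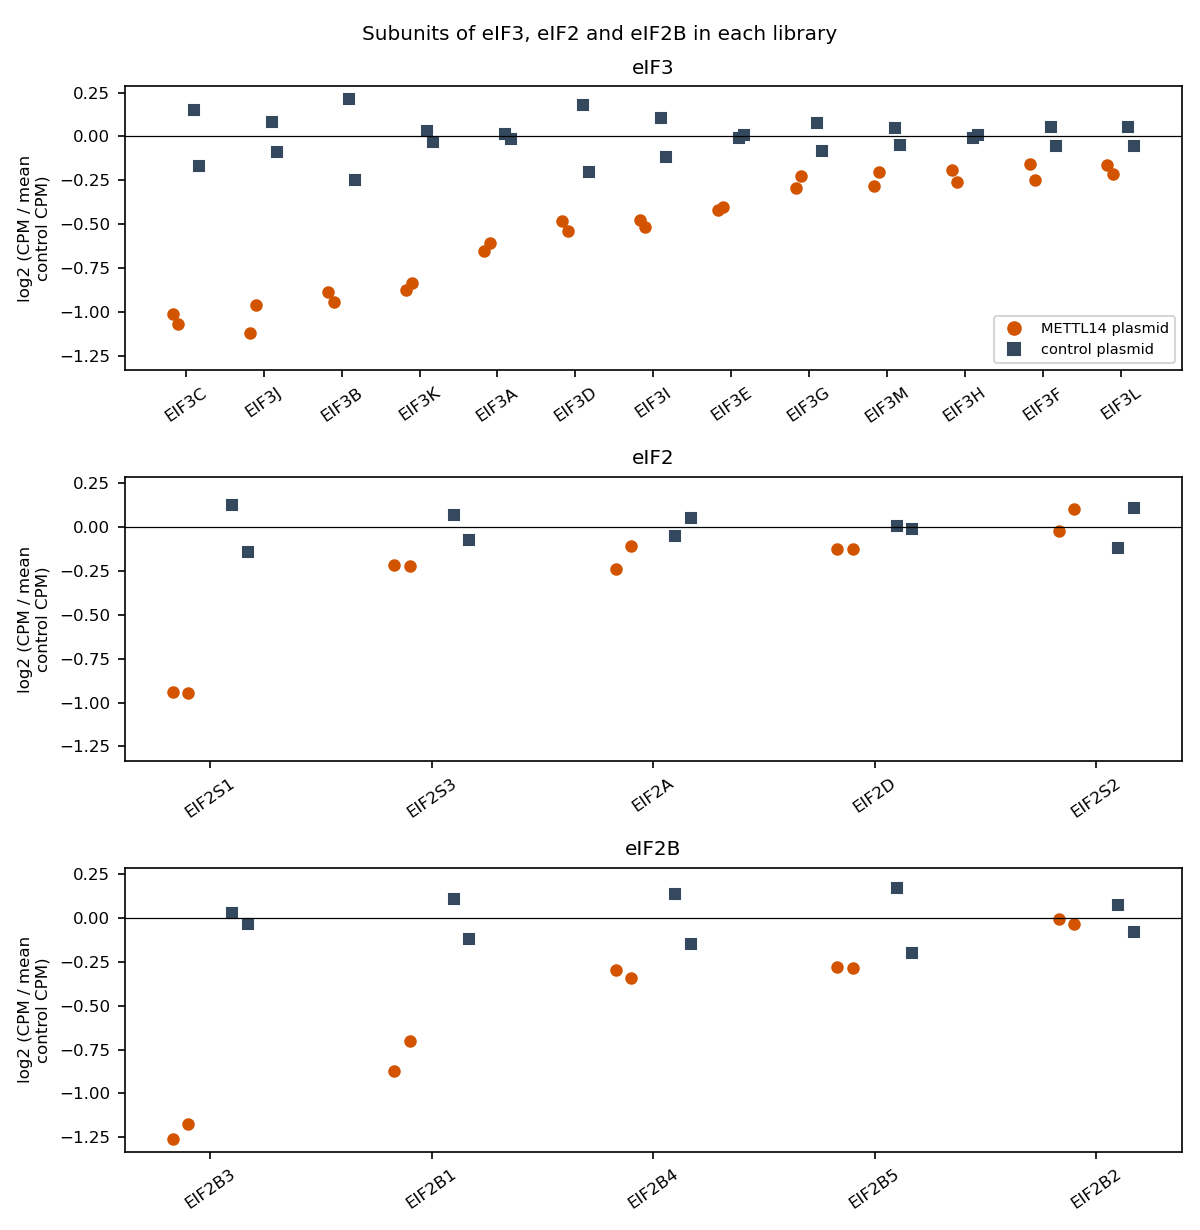
Log2 ratio of each library's CPM to the mean of the controls (y axis) for subunits of eIF3, eIF2 and eIF2B (x axis, ordered by change), with METTL14 libraries as orange circles left of the control libraries as dark squares. EIF3CL, at 0 in 1 library, is not drawn. In eIF3 the circles lie below the squares for every gene drawn, whereas EIF2S2 and EIF2B2 overlap.

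The eIF4F group showed opposite changes among paralogs, and 10 of its 11 tested genes were called, 6 lower and 4 higher. Of all tested genes 55.1% were called, 28.1% lower and 27.0% higher. EIF4A1, the main helicase of cap-dependent initiation, had 971.1 and 936.8 CPM with METTL14 and 2155 and 1772 CPM in controls, 2.06-fold lower (log2 fold change -1.04, SE 0.12, edgeR adjusted p = 0.00045). Its close paralog EIF4A2 had 732.0 and 728.5 CPM with METTL14 and 455.4 and 579.9 CPM in controls and was higher (0.50, SE 0.13, edgeR adjusted p = 0.0144). EIF4A3, the helicase of the exon junction complex, had 83.9 and 82.4 CPM with METTL14 and 151.0 and 127.5 CPM in controls (-0.74, SE 0.113, edgeR adjusted p = 0.00141). The ratio of EIF4A1 to EIF4A2 counts was 1.33 and 1.29 with METTL14 and 4.73 and 3.06 in controls. Its separation follows from the opposite changes of the genes themselves. The EIF4A2 call was lost without either METTL14 library (adjusted p of up to 0.0713), and its value was 0.83 after the length and GC correction. EIF4A1 shares 1586 exon bases with the readthrough gene SENP3-EIF4A1.

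The scaffolds behaved likewise. EIF4G2 (also known as DAP5), which lacks the eIF4E-binding site and serves initiation without eIF4E, had 698.3 and 697.2 CPM with METTL14 and 1677 and 1357 CPM in controls, 2.17-fold lower (-1.12, SE 0.123, edgeR adjusted p = 0.000379). EIF4G1, the principal scaffold of eIF4F, had 756.8 and 742.1 CPM with METTL14 and 1177 and 871.4 CPM in controls (-0.45, SE 0.146, edgeR adjusted p = 0.0337). EIF4G3, its less abundant paralog, had 139.7 and 145.0 CPM with METTL14 and 94.9 and 102.9 CPM in controls and was higher (0.52, SE 0.0987, edgeR adjusted p = 0.00355). For each of the 3 genes the groups were apart, although the controls of EIF4G1 were wide. The EIF4G1 call was lost without METTL14 replicate 1 (adjusted p = 0.112) or 2 (0.128) and that of EIF4G3 without METTL14 replicate 2 (0.0577). The EIF4G1 value was -0.21 without control replicate 1 and -0.90 after the length and GC correction, called in both.

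Of the cap-binding proteins, EIF4E, the limiting cap receptor of eIF4F, had 70.7 and 70.8 CPM with METTL14 and 116.7 and 117.8 CPM in controls, 1.66-fold lower (log2 fold change -0.73, SE 0.0933, edgeR adjusted p = 0.000672). EIF4E3, a cap binder with an atypical pocket, had 25.8 and 24.5 CPM with METTL14 and 7.91 and 10.2 CPM in controls, 2.77-fold higher (1.47, SE 0.162, edgeR adjusted p = 0.000379). EIF4E2 (4EHP), which binds the cap and can repress translation, had 102.9 and 102.6 CPM with METTL14 and 85.3 and 82.7 CPM in controls (0.29, SE 0.0934, edgeR adjusted p = 0.0325). The groups of these 3 genes did not overlap. The EIF4E2 rise was not called without METTL14 replicate 1 (adjusted p = 0.293) or 2 (0.288) or by DESeq2 (0.0575), and EIF4E2 shares 541 exon bases with TIGD1 on the other strand. EIF4E3 shares 738 exon bases with FOXP1 on its own strand, and how reads there were divided between these genes is not known.

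EIF4H, a stimulator of the helicase, was lower (-0.55, edgeR adjusted p = 0.00268), a call lost without METTL14 replicate 1 (adjusted p = 0.0595). EIF4B, the other stimulator, had 558.9 and 558.7 CPM with METTL14 and 468.1 and 496.2 CPM in controls and was not called (0.21, adjusted p = 0.0916), though it was with library totals as the scale and without either control. Of the proteins that hold eIF4E away from eIF4G, EIF4EBP2 had 194.5 and 200.1 CPM with METTL14 and 293.7 and 245.8 CPM in controls (-0.45, SE 0.115, edgeR adjusted p = 0.0129), a call lost without METTL14 replicate 1 or 2 (adjusted p of up to 0.143). EIF4EBP1 overlapped between the groups, with 52.2 and 52.6 CPM with METTL14 and 49.0 and 59.6 CPM in controls (-0.05). EIF4EBP3 held 9 and 1 counts with METTL14 and 8 and 2 in controls and was not tested. EIF4ENIF1, the transporter of eIF4E into the nucleus, had 19.8 and 16.8 CPM with METTL14 and 21.0 and 19.7 CPM in controls and was not called, with overlapping groups (-0.15).

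**Figure D4:**
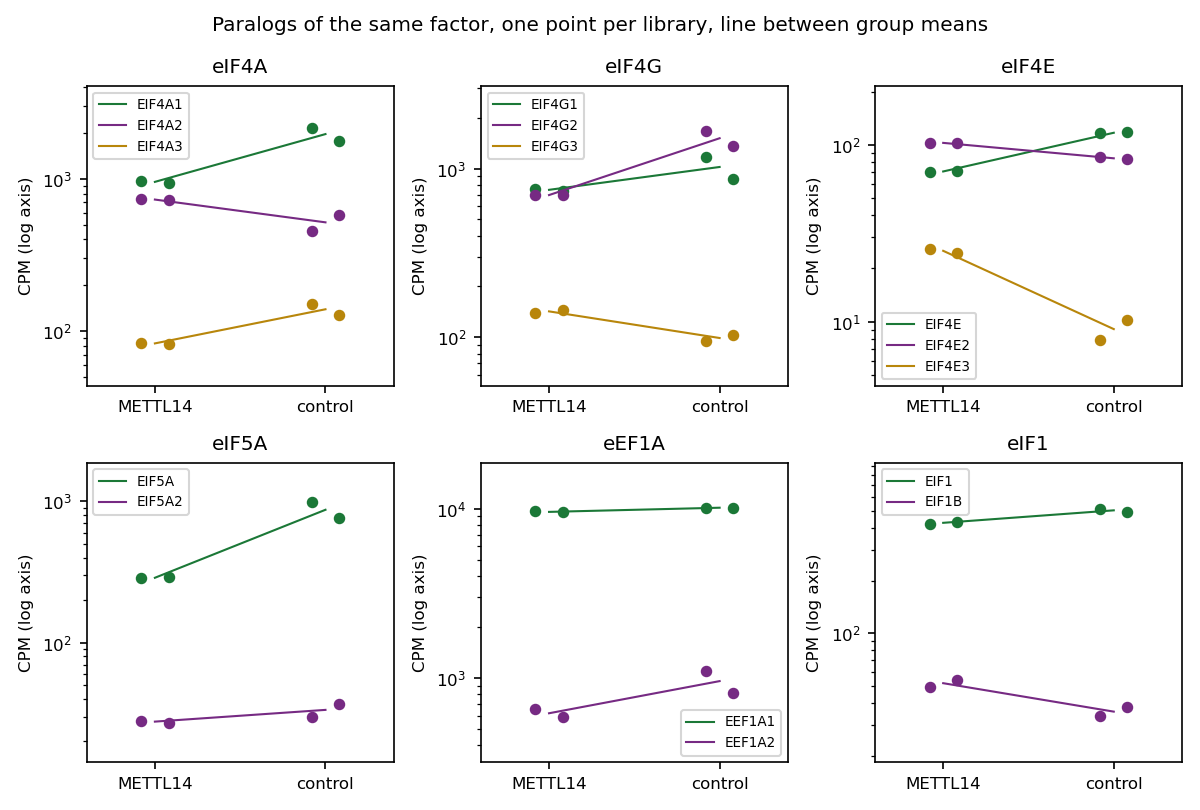
CPM per library (y axis, log scale) for paralogs of 6 factors, with METTL14 libraries left of control libraries and a line between the group means. EIF4A1 and EIF4A2, EIF4G1 and EIF4G3, and EIF4E and EIF4E3 slope in opposite directions, whereas EEF1A1 is nearly flat.

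EIF4E is also the classic MYC target of the family, through 2 E-boxes (CACGTG, the same on both strands) in its promoter. The 250 bases before its RefSeq start (build GRCh38.p14, chr4:98929134-98929383, minus strand) are shown with both in capitals, 225 and 72 bases before the start.
EIF4E: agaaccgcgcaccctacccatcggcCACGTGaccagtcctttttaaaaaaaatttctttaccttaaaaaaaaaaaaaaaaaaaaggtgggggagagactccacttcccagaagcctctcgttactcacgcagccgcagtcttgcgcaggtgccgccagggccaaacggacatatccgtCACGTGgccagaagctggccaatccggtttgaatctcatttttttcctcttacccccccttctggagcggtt
MYC mRNA, named after its values were seen, had 244.7 and 231.6 CPM with METTL14 and 99.5 and 83.5 CPM in controls (log2 fold change 1.38), opposite in direction to EIF4E. A CACGTG lay between 250 bases before and 50 after a start in 12 of 47 tested members (25.5%), against 12.6% of tested genes found in RefSeq. Of those 12 members 6 were lower and 1 higher (median -0.36), and of the 35 without it 18 were lower and 4 higher (median -0.45). Over all tested genes, 446 of 1274 with it were lower and 271 higher, and 2520 of 8854 without it were lower and 2370 higher. A matching sequence is not a binding site, and these RNA libraries, all from cells in CHX, measure neither binding nor MYC protein.

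The group of eIF5, eIF5B, eIF5A and eIF6 had the lowest median log2 fold change (-1.02). Of its 5 tested genes 4 were lower, against 28.1% of all tested genes. EIF5A (GRCh38 chromosome 17, 7306999 to 7312463, plus strand, by GENCODE) carries hypusine, an amino acid found in no other human protein but its paralog. It had 284.8 and 290.3 CPM with METTL14 and 981.8 and 758.8 CPM in controls, 3.03-fold lower (log2 fold change -1.60, SE 0.137, edgeR adjusted p = 0.000177). EIF5B, the GTPase that joins the large subunit, had 43.9 and 47.6 CPM with METTL14 and 126.6 and 117.6 CPM in controls, 2.67-fold lower (-1.42, SE 0.104, edgeR adjusted p = 0.000116). EIF6, which keeps the subunits apart during ribosome maturation, was 2.03-fold lower (-1.02, edgeR adjusted p = 0.000391). EIF5, which triggers GTP hydrolysis on eIF2, was lower too (-0.59, edgeR adjusted p = 0.0018). The falls of EIF5A, EIF5B and EIF6 were called with each library left out in turn, and that of EIF5 was lost without METTL14 replicate 1 (adjusted p = 0.0565).

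EIF5A2, the paralog amplified in some tumours, had 28.1 and 27.2 CPM with METTL14 and 30.0 and 37.0 CPM in controls and was not called (-0.28, adjusted p = 0.122). It was called without control replicate 1, and its sign changed after correction for length and GC content (0.16). Counts of EIF5A were 10.2 and 10.7 times those of EIF5A2 with METTL14 and 32.8 and 20.5 times in controls. EIF5B shares 852 exon bases with REV1 on the other strand. The enzymes that make hypusine did not move together: DOHH, the hydroxylase of the last step, was lower (-1.41, edgeR adjusted p = 0.00309), and DHPS, named after its values were seen, was not called (0.24, adjusted p = 0.084) except with library totals as the scale, without either control, or after the length and GC correction.

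In elongation the abundant EEF1A1, EEF2 and EEF1G were not called and the exchange factors EEF1B2 and EEF1D fell. EEF1A1, the main carrier of aminoacyl-tRNA, had 9628 and 9514 CPM with METTL14 and 10110 and 10150 CPM in controls and was not called (log2 fold change -0.08, SE 0.0878, adjusted p = 0.457). EEF1A2, a paralog of muscle and neurons that some tumours express, had 653.5 and 586.4 CPM with METTL14 and 1105 and 814.3 CPM in controls (-0.63, SE 0.154, edgeR adjusted p = 0.0108), and was at -0.39 without control replicate 1. The 3 subunits of the exchange complex eEF1B differed: EEF1B2 had 170.2 and 178.0 CPM with METTL14 and 322.2 and 342.7 CPM in controls, 1.91-fold lower (-0.93, SE 0.0973, edgeR adjusted p = 0.000316). EEF1D had 166.2 and 161.5 CPM with METTL14 and 290.4 and 267.9 CPM in controls (-0.77, SE 0.0982, edgeR adjusted p = 0.000666). EEF1G, the structural subunit, was not called (-0.22, adjusted p = 0.0972) except without either control, and nearly all its exon bases (2714 of 2716) are also annotated to TUT1. EEF1E1, a scaffold of the tRNA synthetase complex, was lower (-0.68, edgeR adjusted p = 0.00233), but not after correction for length and GC content (-0.09).

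EEF2, the translocase, had 3522 and 3348 CPM with METTL14 and 4189 and 3653 CPM in controls and was not called (-0.19, adjusted p = 0.163), though it was without control replicate 2 (-0.29) or after the length and GC correction (-0.49). EEF2K, the kinase that inactivates eEF2, had 32.1 and 31.9 CPM with METTL14 and 28.2 and 25.2 CPM in controls (0.26, adjusted p = 0.0997). It was called without control replicate 1, and its sign changed after that correction (-0.07). The groups of neither gene overlapped.

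The lysine methyltransferases of the elongation factors are weakly expressed. EEF1AKMT1 had 3.80 and 3.26 CPM with METTL14 and 7.91 and 7.80 CPM in controls (log2 fold change -1.15, SE 0.205, edgeR adjusted p = 0.00278). EEF1AKMT3 had 9.04 and 8.70 CPM with METTL14 and 4.89 and 5.03 CPM in controls and was higher (0.84, SE 0.181, edgeR adjusted p = 0.00648), a call lost without METTL14 replicate 1 (adjusted p = 0.0674). Its row shares 506 exon bases with METTL1 on the other strand. EEF1AKMT2 (-0.46) and EEF2KMT (-0.40) were lower, but were not called by DESeq2 (adjusted p = 0.0934 and 0.0957) or without METTL14 replicate 1 (0.336 and 0.282) or 2 (0.0945 and 0.161), nor with library totals as the scale (0.0816 and 0.0567). EEF1AKMT2 was also not called after correction for length and GC content (-0.06). EEF1AKMT4 was not called (0.20).

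As a share of all counts, the members took 2.56 and 2.54% with METTL14 and 3.16 and 3.07% in controls. Initiation factors took 1.00 and 1.01% of counts with METTL14, against 1.49 and 1.39% in controls, and elongation factors took 1.56 and 1.53% with METTL14 and 1.67 and 1.68% in controls. EEF1A1, EEF2 and EEF1G together held 56.6 and 56.3% of the members' counts with METTL14 and 47.2 and 49.7% in controls. These shares are given without a test, and an exact permutation test of 2 against 2 libraries cannot go below p = 0.333.

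**Figure D5:**
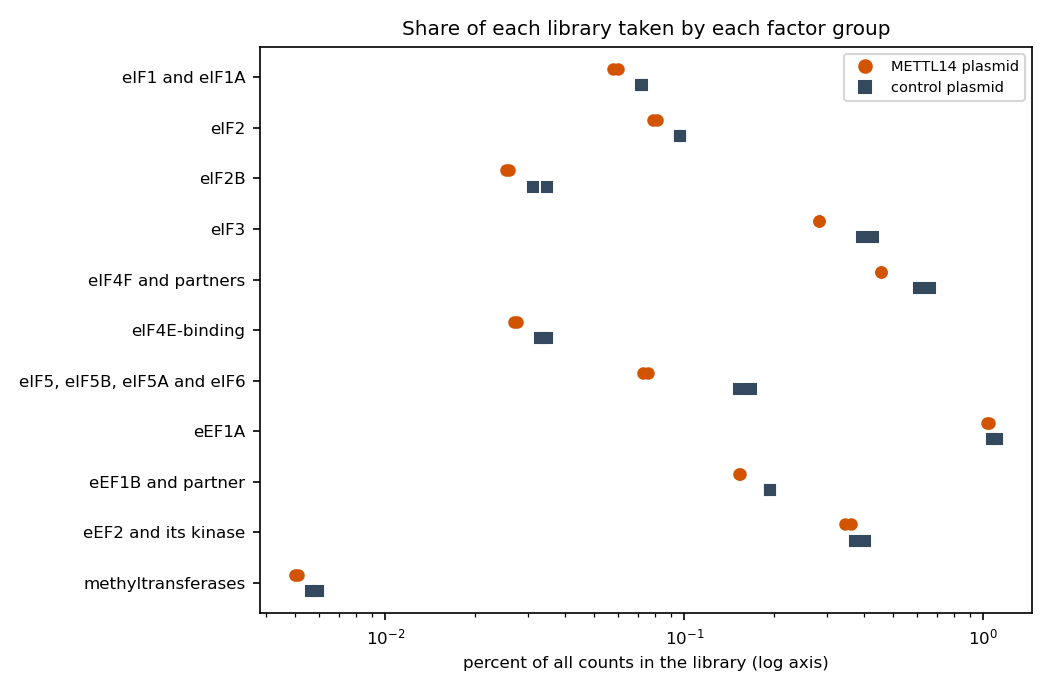
Percent of all counts in a library (x axis, log scale) taken by each factor group (y axis), with METTL14 libraries as orange circles above the control libraries as dark squares. The group of eIF5, eIF5B, eIF5A and eIF6 has 0.0725 and 0.0756% with METTL14 and 0.167 and 0.152% in controls, and the eEF1A group lies closest together.

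Other genes of translation control, a list of 54 chosen with earlier results of these data known, showed 18 lower and 9 higher among 53 tested (median log2 fold change -0.17), where 34% and 17% compare with 28.1% and 27.0% of all genes. In termination and recycling 5 of 6 were lower and 1 higher, with ABCE1, which splits ribosomes, at -1.28 (SE 0.145, edgeR adjusted p = 0.000418). Of 9 mitochondrial translation factors 6 were lower and none higher, with GFM1, a mitochondrial elongation factor, at -0.91 (SE 0.101). Genes around eIF2 phosphorylation were higher in 4 of 8 cases and lower in 1. PPP1R15B, the constitutive partner of the eIF2 phosphatase, was at 0.65 (SE 0.101). The lower gene was PPP1R15A, named after its values were seen, at -0.49 (SE 0.0947). In the mTOR and MNK group 4 of 14 were higher and 3 lower, led by DEPTOR, an mTOR inhibitor, with 13.7 ± 0.975 CPM with METTL14 and 2.37 ± 1.44 CPM in controls (SD, n = 2; log2 fold change 2.52).

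A few more genes of the list are named after their values were seen. PDCD4, an inhibitor of eIF4A, was higher (1.11, SE 0.191), and MTOR itself was higher (0.63) but not called after correction for length and GC content (0.24). In the mTOR and MNK group MKNK2 was also higher (0.51), whereas MLST8 (-0.655) and RPS6KB2 (-0.72) were lower. LARP1, which binds TOP mRNAs, was lower (-0.49), a call lost without METTL14 replicate 1 (adjusted p = 0.1079) or 2 (0.0657), and was at -0.88 after the length and GC correction. PABPC1, the main poly(A)-binding protein, was not called (-0.06, and 0.07 without control replicate 1), except as lower without control replicate 2 (-0.18). Its paralog PABPC4 was lower (-0.76, edgeR adjusted p = 0.00789), at -0.46 without control replicate 1. Of 7 diphthamide genes, which modify eEF2, DPH2 alone was called (-0.61, edgeR adjusted p = 0.047), and limma-voom, DESeq2 size factors and other filters did not call it (up to 0.0839). Its value was -0.19 without control replicate 1 and -0.93 without control replicate 2. Neither gene of selenocysteine insertion was called (EEFSEC at -0.13), although EEFSEC was lower without control replicate 2 (-0.23) and after the length and GC correction (-0.32).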

How the data were processed

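Deposited values were estimated counts per gene, not scaled to library size (10.8 to 11.6% of the authors' values were not whole), and were rounded to whole numbers. RSEM, StringTie, HISAT2, Bowtie2 and fastp stand, without versions, in the submitters' processing notes, with build hg18. Of the 20323 gene identifiers 20171 are in GENCODE 29 (GRCh38), so the build behind the counts is unclear, and GENCODE served for positions, overlaps of exons, length and GC content. Estimated counts divide reads between similar or overlapping genes.

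Counts were fitted on all genes in R 4.3.3 by edgeR 4.0.16, using filterByExpr at a minimum count of 10, TMM and the robust quasi-likelihood test, METTL14 over control, with no covariate. Adjusted p-values are Benjamini-Hochberg over 12700 genes at a threshold of 0.05, and SE is the size of the log2 fold change over the square root of F. With 2 libraries per group the p-values rest on a spread shared over genes, measured between experiments the series calls independent. Rows without a symbol (102) took at most 0.037% of counts.

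Each member could be named. Values per library are given for the 2 members with the smallest p in each complex, each member called higher and chosen paralog groups. They are also given for some members outside this rule, such as EIF1, EIF2S2, EIF2B5 and EIF4B. The members, lists and tests were chosen with earlier results of these data known. Alternatives used DESeq2 1.42.0, limma 3.58.1 and other filters, scales and libraries. Start sites and motifs were read from RefSeq on GRCh38.p14.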

Additional observations from a re-analysis of the deposited data

How the results depend on the processing

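Over 15 alternative settings, 800 of 899 recomputed member values kept their direction and side of the threshold, and 21 of 36 called members did so in each setting other than the test against 1.5-fold. That test called 14 members lower and 1 higher (10.7% and 11.1% of all genes), and 5 genes lower and 2 higher in the list of other translation genes. Leaving out 1 library at a time gave 22 to 43 members lower and 2 to 9 higher (17.9 to 35.3% and 17.9 to 34.3% of all genes), and 12 to 27 genes lower and 5 to 14 higher in the other list. Fewer calls came without a METTL14 library and more without a control, the pair whose libraries lie further apart. Without METTL14 replicate 1 EIF3D, EIF3E, EIF3I, EIF4A2, EIF4H, EIF4E2, EIF4G1, EIF4EBP2, EIF5, EEF1AKMT2, EEF1AKMT3 and EEF2KMT were lost, and without replicate 2 EIF1B, EIF3D, EIF3E, EIF3I, EIF4A2, EIF4E2, EIF4G1, EIF4G3, EIF4EBP2, EEF1AKMT2 and EEF2KMT. Without a control no call was lost, and 11 and 15 were gained. DESeq2 called 28 lower and 5 higher. With the replicate block, replicate number as a term, 33 were lower and 6 higher, with all 36 calls kept and EIF2B4, EIF2B5 and EIF3G gained. The labels do not say whether same-numbered libraries come from the same run. Their deviations from the group means correlated weakly (r = 0.111 across genes), which cannot decide it, so no pairing is claimed. Leaving mitochondrial genome genes out of the total put the members' share at 2.84% with METTL14 and 3.32% in controls.

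Signs changed after correction for length and GC content (a trend over 12653 genes), an alternative chosen after seeing the data, for EIF2A (0.165), EIF3E (0.0597), EIF3M (0.0135), EIF4EBP1 (0.012), EIF5A2 (0.162) and EEF2K (-0.0665). Of these EIF3E alone had been called. With library totals they changed for EIF1AD (0.0241) and EIF2B2 (0.0307), with a filter of 5 CPM for EIF2B2 (0.0075). With 1 library left out at a time, values ran from -0.292 to 0.282 for EIF1AD, -0.0638 to 0.155 for EIF2S2, -0.101 to 0.0626 for EIF2B2, -0.184 to 0.0934 for EIF4EBP1 and -0.176 to 0.0731 for PABPC1. The causes were not tested. Among tested members, counts were fewest for EIF3CL (0 to 136 a library) and EEF1AKMT1 (66 to 152), with SEs of 0.959 and 0.205.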

Other observations

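Members that did not pass the filter held few counts. EIF2S3B, a retrocopy of the eIF2 gamma subunit gene, had 5 and 4 counts with METTL14 and 2 and 2 in controls. EIF5AL1, a retrocopy of EIF5A, had 10 and 1 counts with METTL14 and 8 and 9 in controls, beside the 5543 and 5876 counts of EIF5A with METTL14 and its 18874 and 14786 counts in controls. The readthrough EEF1E1-BLOC1S5 had 2 and 2 counts with METTL14 and 0 in both controls. EIF4E1B, the oocyte form of eIF4E, and EEF1AKMT4-ECE2 had no count.

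Among the tested members the median absolute log2 ratio between replicates was 0.0494 for METTL14 and 0.156 for controls, and 42 of 60 members were higher in control replicate 1 than in control replicate 2. The second row of EEF1AKMT3, whose 679 exon bases are all annotated also to TSFM or the first row, had 37 and 20 counts with METTL14 and 24 and 30 in controls and was not called (log2 fold change 0.05), while the row described above was higher.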
